A study of Mus musculus with 8 samples.

Results

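The genes described here are 42 mouse genes whose products sense, signal or repair DNA double-strand breaks. They were taken by name from a list that was chosen with earlier results of these data known. Of the 42, 38 were measured among 30516 genes with a probe set of their own on the array. The 38 comprised 10 genes of break signalling and the checkpoint, 7 of end sensing and resection, 11 of homologous recombination, 3 of the Fanconi anaemia pathway, 6 of classical end joining, and Polq, the polymerase of theta-mediated end joining. Rbbp8, Xrcc2 and Dclre1c were not analysed here, and the probe set of Rad54b is shared with another gene and was left out. Each measured gene had 1 probe set.

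Microarrays had been run on RNA from LT-HSC, the long-term haematopoietic stem cells, which were sorted from mouse bone marrow as lineage-negative cells positive for cKit, Sca and CD150 and negative for Flk2 and CD48. The donors were wild-type (WT) mice and CD169DTR/+ mice (CD169-DTR below), which carry 1 allele for a diphtheria toxin receptor expressed with CD169, a surface lectin of macrophages. Both genotypes received diphtheria toxin, which is meant to deplete CD169+ macrophages in CD169DTR/+ mice alone. After 72 h the mice were sham-irradiated or given 2 Gy of total body irradiation, and the stem cells were isolated 5 days after irradiation. Each genotype therefore gave a non-irradiated and a 2 Gy group, 4 groups in all and every one exposed to toxin, with 2 arrays each (n = 2 per group throughout). The 2 arrays of a group come from separate experiments per the submitters, so the spread between them includes whatever differed between those experiments. The ages of the mice and whether cells of several mice were pooled are not given in the sources used here.

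Double-strand breaks are bound by the Mre11-Rad50-Nbn complex or by the Ku heterodimer, and the kinases Atm, Atr and Prkdc pass the signal on. Classical end joining rejoins the ends directly and works throughout the cell cycle, whereas homologous recombination copies an intact sister chromatid and is restricted to S and G2. Adult LT-HSC are mostly quiescent, and transcription of many recombination and Fanconi anaemia genes is known to follow the cell cycle. Much of the immediate control of repair acts through protein modification, which these arrays do not measure.

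The values are log2 intensities after RMA, a method that corrects background, equalizes the distributions of the arrays and summarizes the probes of a probe set. A difference of 1 on this scale is a 2-fold change. All 38 genes lay above the median of all probe sets on each of the 8 arrays, and the dimmest of them stood at the 55.5th to 63.2nd percentile of its array. Their mean levels over the arrays ran from 5.87 for Rad51c to 11.63 for Rnf168, but levels of different probe sets depend on the probes and do not rank the genes. Array medians were 4.76 to 4.93, and arrays of 1 group correlated at 0.9905 to 0.9942 over all probe sets. The arrays most distant on the first principal component were CD169-DTR 2 Gy replicate 2 (44.7 units) and replicate 1 of WT 2 Gy (36.4 units), against 7.82 to 21.6 for the other arrays. Of markers of the sorted cells, Kit read 14.25 to 14.93 and Slamf1, which encodes CD150, read 10.66 to 12.38. Of the genes whose proteins the sort excludes, Cd48 read 10.98 to 13.47, with a difference after 2 Gy of 1.44 in each genotype, and Flt3, which encodes Flk2, read 5.85 to 8.22, 2.01-fold lower after 2 Gy in WT and 3.1-fold lower in CD169-DTR. All 4 differences had an unadjusted p under 0.05 and none passed the adjusted threshold (limma). Siglec1, which encodes CD169, read 3.86 to 4.12 on all arrays, below the array medians, so these stem cell arrays do not measure the depletion.

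Cdkn1a, a p53 target that arrests the cell cycle, served as a check of the irradiation labels. It read 7.86 and 8.39 in non-irradiated WT cells and 13.06 and 13.41 after 2 Gy, and 9.79 and 9.34 against 13.24 and 13.23 in CD169-DTR cells. In WT it rose 34.5-fold (95% CI 23.3 to 51.3; limma, adjusted p = 0.00756), and the 12.7-fold difference in CD169-DTR had an adjusted p of 0.0643.

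**Figure D1:**
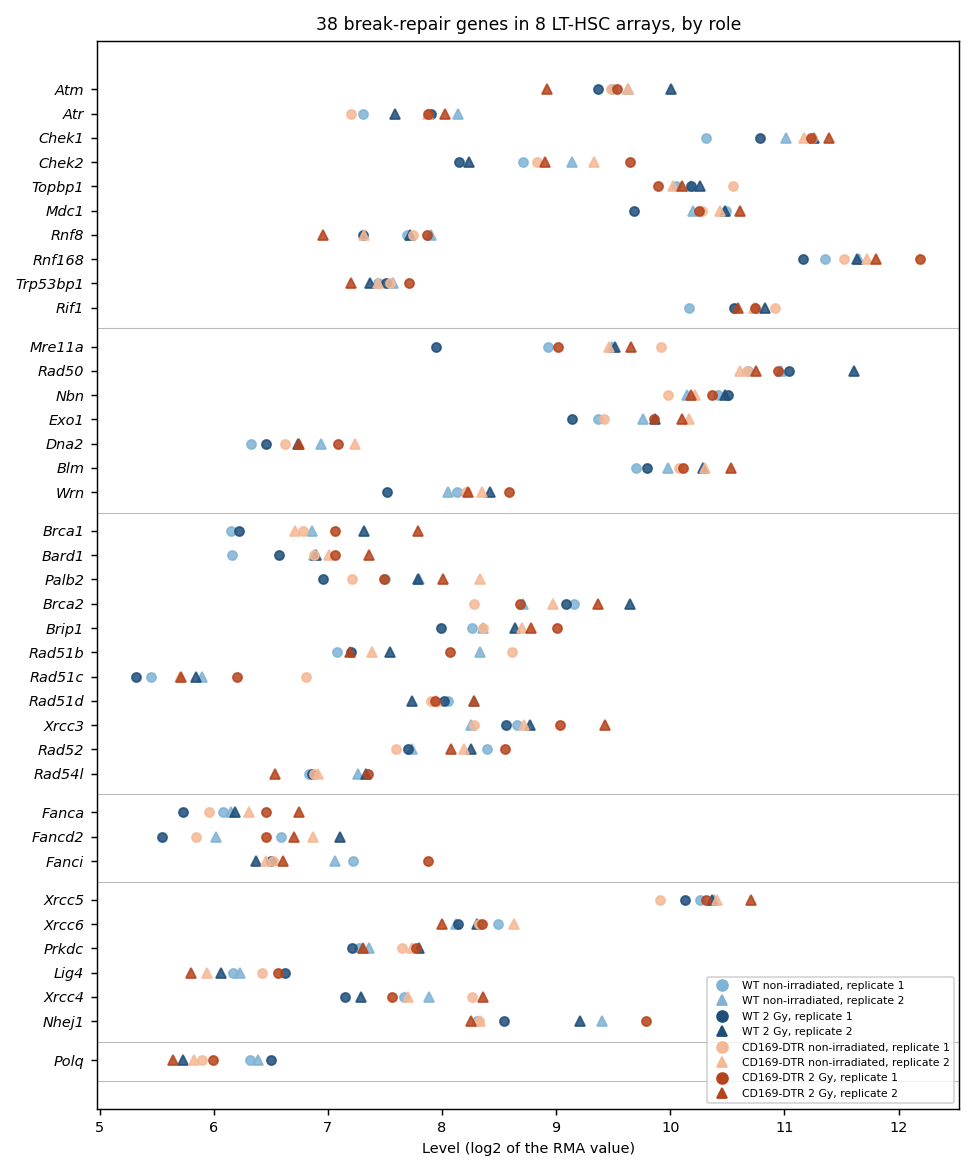
Log2 level (horizontal axis) of the 38 measured break repair genes (vertical axis, ordered by role) on each of the 8 arrays. Light and dark blue are WT without and with 2 Gy, light orange and dark red are CD169-DTR without and with 2 Gy; circles are replicate 1 and triangles replicate 2. Mre11a spreads widest, from 7.95 to 9.92, and Trp53bp1 runs from 7.20 to 7.71; levels of different genes are not comparable.

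None of the 38 break repair genes passed an adjusted p of 0.05 (limma, Benjamini-Hochberg over all 30906 probe sets tested) in any of 6 comparisons: irradiation in each genotype and averaged over both, the difference of the 2 irradiation responses, and depletion without irradiation and after 2 Gy. Over all probe sets the same rule called 3 (0.00971%) for irradiation in WT, 3 (0.00971%) averaged over genotypes, and 0 for the remaining 4. The sections below therefore use an unadjusted p under 0.05 and groups that do not overlap as descriptive counts, each beside the share of all probe sets counted in the same way. With 2 arrays per group the 95% interval of a member's difference between 2 groups had a median half-width of 0.68. For irradiation, 25 of 38 intervals in WT and 26 of 38 in CD169-DTR lay wholly inside a 2-fold change either way, and so did 16 of 38 for depletion after 2 Gy. An interval that holds 0 therefore leaves room for changes of that half-width in many of these genes.

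At 5 days after 2 Gy the break repair genes of WT cells sat close to the level in non-irradiated cells. Their median log2 difference was -0.05, with 18 genes on the higher side and 20 on the lower, against a median of 0.08 for all probe sets. The range ran from -0.73 for Chek2 to 0.50 for Rad50. Of the 38, 1 (2.63%) had an unadjusted p under 0.05, against 7.77% of all probe sets. It was lower, where 3.18% of all probe sets were lower and 4.59% higher by this rule. Groups did not overlap for 2 genes on the higher side (5.26%, against 31.6% of all probe sets) and for 4 on the lower side (10.5%, against 13.1%). Among the 12310 probe sets at least as bright as the dimmest member, the median was -0.01, the unadjusted rule was met by 4.25% higher and 6.52% lower, and groups did not overlap for 20.2% higher and 22.9% lower. The sign of the small median turned with single arrays: it was 0.06 with the second WT non-irradiated array left out, and 0.17 or -0.19 with the first or the second WT 2 Gy array left out. Without any of these 3 arrays singly, Chek2 no longer met the unadjusted rule, and 3, 2 and 3 other genes did in turn (Bard1, Chek1 and Rif1; Polq and Rad50; Mdc1, Mre11a and Wrn). Without either CD169-DTR 2 Gy array, which enters this comparison through the shared variance alone, 3 genes met it (Chek2, Fanci and Xrcc4).

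In CD169-DTR cells the median difference after 2 Gy was 0.13, with 23 genes higher and 15 lower, against 0.03 for all probe sets. The range ran from -0.37 for Rad51b to 0.76 for Fanci. Xrcc3 (1 of 38, 2.63%) had an unadjusted p under 0.05 and was higher, against 6.73% of all probe sets (3.25% higher and 3.48% lower). Non-overlapping groups numbered 8 on the higher side (21.1%, against 17.8%) and 0 on the lower (13.3% of all probe sets). Of the bright probe sets, 16.5% were higher and 18.5% lower without overlap, with a median of 0.00. The median of the members was 0.07 without the first non-irradiated CD169-DTR array, when 0 genes met the unadjusted rule, and 0.22 without the second, when 5 did (Xrcc3, Fanca, Rad51c, Topbp1 and Xrcc5). It was met by 2 genes without CD169-DTR 2 Gy replicate 2 (Fanci and Nhej1) and by 2 without either WT 2 Gy array (Xrcc3 and Fanca). Averaged over the genotypes, the median was 0.04 and Xrcc3 alone of the 38 had an unadjusted p under 0.05, against 9.2% of all probe sets (5.26% higher and 3.94% lower). Single arrays left out moved that average from -0.01 (CD169-DTR 2 Gy replicate 1) to 0.15 (WT 2 Gy replicate 1), and the count from 0 (CD169-DTR non-irradiated replicate 1) to 5 (WT 2 Gy replicate 1).

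The comparison of CD169-DTR with WT after 2 Gy gave the largest median of the 6 comparisons. The median difference was 0.27, with 27 genes higher and 11 lower in CD169-DTR, against -0.02 for all probe sets and 0.04 for the 12310 bright probe sets. An unadjusted p under 0.05 was reached by 6 genes, all higher (15.8%): Chek2, Rnf168, Brip1, Xrcc3, Fanca and Xrcc4. Among all probe sets 7.46% met this rule, 3.79% higher and 3.68% lower, and among those as bright 7.07% and 4.84%. Groups did not overlap for 9 genes on the higher side (23.7%, against 15.8% of all probe sets and 23.9% of those as bright) and 3 on the lower (7.89%, against 18.9% and 16.3%). Read against the bright probe sets, the share of non-overlapping higher genes was at background.

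That count and median depended on single arrays. Without WT 2 Gy replicate 1 the median was 0.07 in place of 0.27 and 3 genes had an unadjusted p under 0.05, of which Chek2 alone was among the 6. Without WT 2 Gy replicate 2 the median was 0.50 and 9 genes were counted, 4 of the 6 among them (Brip1, Chek2, Fanca and Rnf168). Without CD169-DTR 2 Gy replicate 2, 3 genes were counted, with Chek2 and Rnf168 from the 6. Leaving out any of the other 5 arrays gave 5 genes each. WT 2 Gy replicate 1 held the lowest value of all 8 arrays for 13 of the 38 genes. Within the WT 2 Gy group, replicate 2 exceeded replicate 1 for 31 of 38 genes, with a median gap of 0.46. The same held for 7017 of the 12310 bright probe sets (median 0.06) and 13378 of all 30906 (median -0.04). The members' median gap was 0.21 in WT non-irradiated, 0.13 in CD169-DTR non-irradiated and -0.19 in CD169-DTR 2 Gy. The irradiation response in WT and the depletion comparison after 2 Gy share these 2 arrays, so their values are not independent of each other.

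**Figure D2:**
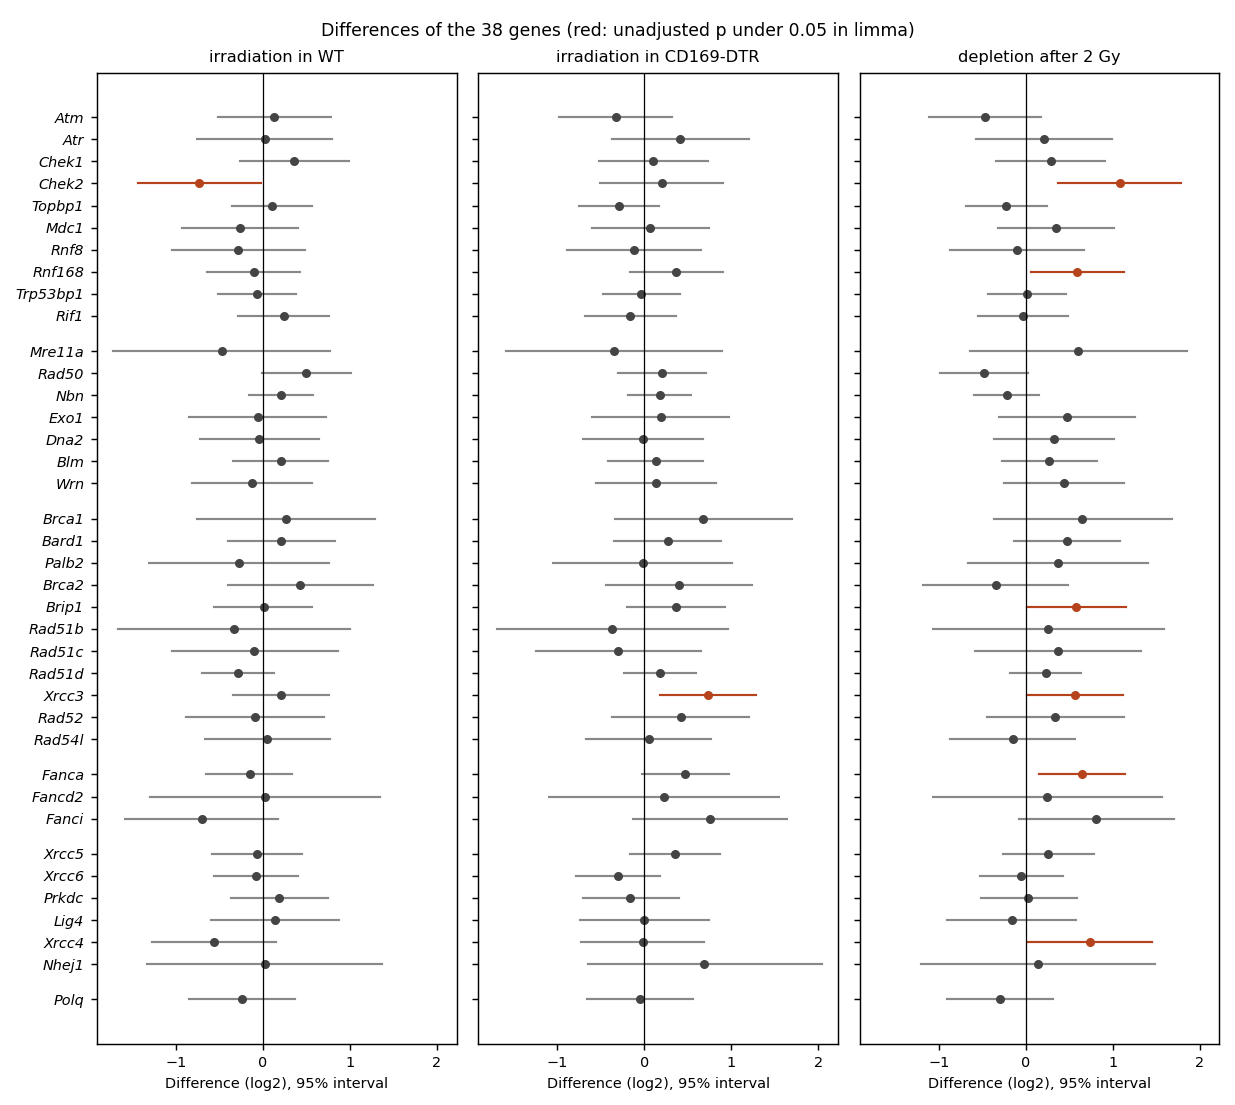
Log2 difference with its 95% confidence interval (horizontal axis) for the 38 break repair genes (vertical axis, by role) in 3 comparisons: irradiation in WT, irradiation in CD169-DTR, and CD169-DTR against WT after 2 Gy. Red marks an unadjusted p under 0.05: Chek2 in WT, Xrcc3 in CD169-DTR, and 6 genes to the right of 0 in the third panel. All other intervals cross 0.

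Without irradiation, the median difference of CD169-DTR from WT was 0.08, with 23 genes higher and 15 lower in CD169-DTR, against 0.03 for all probe sets and 0.03 for those as bright. No break repair gene had an unadjusted p under 0.05 in this limma fit (0 of 38, against 4.34% of all probe sets, 2.48% higher and 1.86% lower), while leaving out single arrays counted 0 to 3, with 3 without WT non-irradiated replicate 2 and 2 without CD169-DTR non-irradiated replicate 2. The median was then 0.11 and -0.05, and -0.02 without WT non-irradiated replicate 1. Groups did not overlap for 4 genes on the higher side (Chek1, Blm, Wrn and Prkdc; 10.5%, against 19.1% of all probe sets) and 4 on the lower (Rad50, Rad51d, Fanci and Polq; 10.5%, against 11.9%). For the difference between the 2 irradiation responses the median was 0.17, against -0.05 for all probe sets and 0.00 for those as bright. Here 24 genes were more positive in CD169-DTR and 14 less, where 41.9% of all and 49.8% of the bright probe sets were more positive. Fanci was the 1 gene with an unadjusted p under 0.05 (2.63%, against 5.11% of all probe sets, 2.37% more positive and 2.74% less). Without WT 2 Gy replicate 1 that median was -0.12 and no gene met the rule, while 4 did without WT 2 Gy replicate 2 (Brip1, Fanca, Mdc1 and Wrn; median 0.29). The median half-width of its 95% intervals was 0.96.

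Among the signalling genes, Chek2, the effector kinase that Atm activates, differed most. It read 8.71 and 9.14 in WT non-irradiated cells, 8.15 and 8.24 in WT after 2 Gy, 8.83 and 9.33 in CD169-DTR non-irradiated cells, and 9.65 and 8.90 in CD169-DTR after 2 Gy. Both irradiated WT arrays were the lowest of the 8, and no other array overlapped them. The difference of CD169-DTR from WT after 2 Gy was 1.08 ± 0.30 (SE; 2.11-fold, 95% CI 1.3 to 3.45; limma, adjusted p = 0.628). It stayed at an unadjusted p under 0.05 in every alternative fit with 2 arrays per group. Most of these fits leave the difference itself unchanged and alter only its variance. They are therefore no separate checks of it. With single arrays left out, the difference ran from 0.71 to 1.46. The lowest was without CD169-DTR 2 Gy replicate 1, and 1.46 was without CD169-DTR 2 Gy replicate 2. Irradiation in WT gave -0.73 ± 0.30 (SE; 95% CI -1.44 to -0.02; limma, adjusted p = 0.64), and the unadjusted p was above 0.05 when WT non-irradiated replicate 2 or either of the WT 2 Gy arrays was left out. Irradiation in CD169-DTR gave 0.20 (95% CI -0.51 to 0.90), and the difference of the responses was 0.93 ± 0.42 (limma, adjusted p = 0.941).

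Rnf168, a ubiquitin ligase that marks chromatin around breaks, read 11.36 and 11.65 in WT non-irradiated, 11.16 and 11.64 in WT 2 Gy, 11.52 and 11.72 in CD169-DTR non-irradiated, and 12.19 and 11.80 in CD169-DTR 2 Gy. The irradiated CD169-DTR arrays were the highest pair. Their difference from WT 2 Gy was 0.59 ± 0.22 (SE; 95% CI 0.06 to 1.13; limma, adjusted p = 0.656). It was 0.35 without WT 2 Gy replicate 1 and 0.40 without CD169-DTR 2 Gy replicate 1, each with an unadjusted p above 0.05.

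Atm, the kinase that responds first to breaks, read 9.49 and 9.63, 9.37 and 10.01, 9.48 and 9.63, and 9.53 and 8.92 in the same order of groups. Its values overlapped between the groups of every comparison. Irradiation gave 0.13 in WT (95% CI -0.52 to 0.78) and -0.33 in CD169-DTR (-0.98 to 0.32), and depletion after 2 Gy gave -0.47 (-1.11 to 0.18). The WT value was 0.45 and -0.19 without the first and the second irradiated array. Without WT 2 Gy replicate 1, or without CD169-DTR 2 Gy replicate 1, Atm was among the genes with an unadjusted p under 0.05 for depletion after 2 Gy, on the lower side.

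Chek1, the kinase that Atr activates and that restrains entry into mitosis, read 10.31 and 11.01 in WT non-irradiated and 10.79 and 11.26 in WT 2 Gy cells, and 11.17 to 11.39 on the 4 CD169-DTR arrays. WT non-irradiated replicate 1 was its lowest array. Irradiation gave 0.36 in WT (95% CI -0.26 to 0.99) and 0.10 in CD169-DTR, and depletion without irradiation gave 0.54 (-0.08 to 1.17; limma, adjusted p = 0.999). Without WT non-irradiated replicate 1 the irradiation difference in WT was 0.01 and that for depletion 0.19, and without replicate 2 they were 0.71 and 0.89, both then with an unadjusted p under 0.05.

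Trp53bp1, whose product 53BP1 shields ends from resection, kept within a narrow band. It read 7.44 and 7.57, 7.51 and 7.37, 7.54 and 7.44, and 7.71 and 7.20 in the same order. Irradiation gave -0.07 in WT (95% CI -0.51 to 0.38) and -0.04 in CD169-DTR (-0.48 to 0.41), and depletion after 2 Gy gave 0.01 (-0.43 to 0.46), intervals that hold no 2-fold change. The other signalling genes were Atr, Topbp1 (an activator of Atr), Mdc1 (a scaffold on modified histone H2AX), Rnf8 (a ubiquitin ligase upstream of Rnf168) and Rif1 (a partner of 53BP1). Topbp1 alone of these 5 had groups without overlap in an irradiation or post-irradiation comparison, at -0.23 for depletion after 2 Gy.

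**Figure D3:**
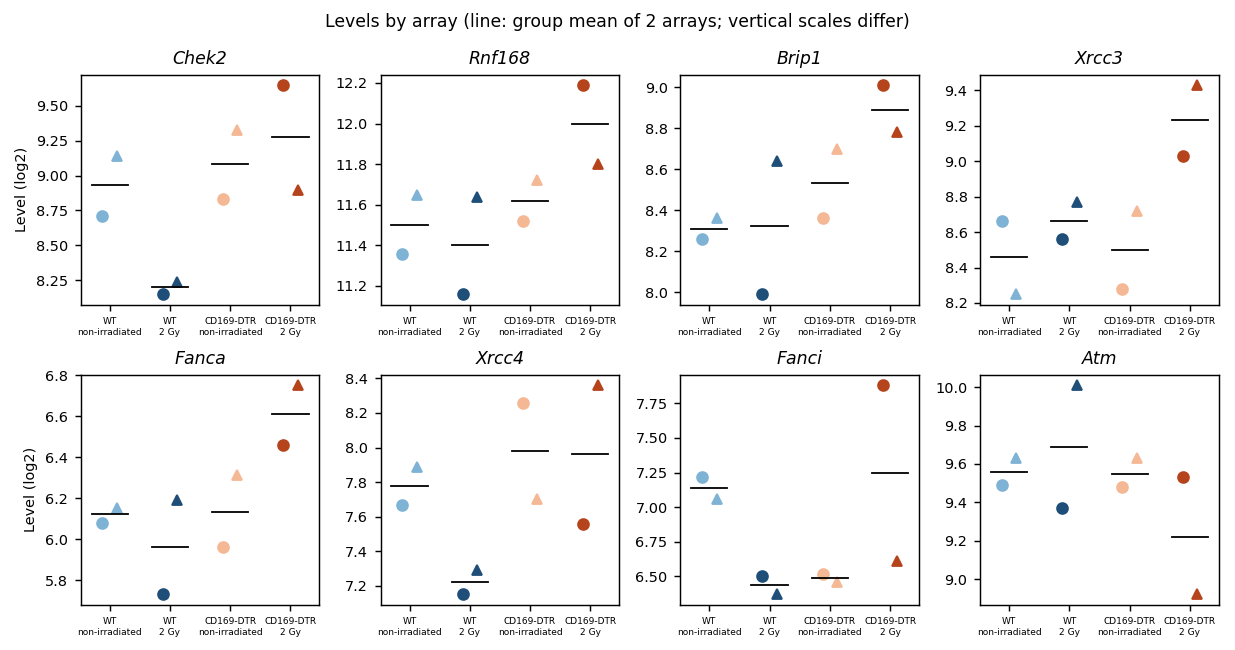
Log2 level (vertical axis) on each of the 8 arrays by group (horizontal axis) for Chek2, Rnf168, Brip1, Xrcc3, Fanca, Xrcc4, Fanci and Atm. Points are arrays (circle replicate 1, triangle replicate 2) and lines are means of 2 arrays; the WT 2 Gy arrays are the lowest pair for Chek2 and Xrcc4, and the CD169-DTR 2 Gy arrays the highest pair for Rnf168, Brip1, Xrcc3 and Fanca.

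The 7 genes of end sensing and resection had irradiation medians of -0.04 (WT) and 0.13 (CD169-DTR) and a depletion median of 0.32 after 2 Gy, and none had an unadjusted p under 0.05. The Mre11 complex, which tethers and trims ends, has Mre11a, Rad50 and Nbn as its subunits. Rad50 read 10.68 and 10.97 in WT non-irradiated and 11.04 and 11.61 in WT 2 Gy, against 10.67 and 10.61 and 10.94 and 10.75 in CD169-DTR. Its irradiated arrays lay above the non-irradiated ones in each genotype without overlap, by 0.50 in WT (95% CI -0.01 to 1.01) and 0.20 in CD169-DTR. Mre11a had the widest replicate gap of any member, 7.95 and 9.52 in WT 2 Gy, and a difference of -0.47 ± 0.52 (SE) there. Nbn, the third subunit, ran from 9.98 to 10.51 over the 8 arrays. Depletion after 2 Gy gave -0.48 for Rad50, -0.22 for Nbn and 0.60 ± 0.52 (SE) for Mre11a. The nucleases Exo1 and Dna2 and the helicases Blm and Wrn, which extend resection, had differences of 0.27 to 0.47 in that comparison, with intervals that all held 0.

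Homologous recombination genes had medians of 0.01 for irradiation in WT and 0.27 in CD169-DTR, and 9 of 11 were higher in CD169-DTR than in WT after 2 Gy (median 0.37), where 45.8% of all and 54.8% of the bright probe sets were higher. Of these 11, 2 (18.2%) met the unadjusted rule on the higher side (Brip1 and Xrcc3), against 3.79% of all and 7.07% of the bright probe sets. Xrcc3, which works in homologous recombination as the partner of Rad51c, read 8.66 and 8.25 in WT non-irradiated, 8.56 and 8.77 in WT 2 Gy, 8.28 and 8.72 in CD169-DTR non-irradiated, and 9.03 and 9.43 in CD169-DTR 2 Gy. The irradiated CD169-DTR arrays lay above all others. Irradiation in CD169-DTR gave 0.73 ± 0.23 (SE; 1.66-fold; 95% CI of the log2 difference 0.18 to 1.28; limma, adjusted p = 0.628). That difference was 0.51 without CD169-DTR non-irradiated replicate 1 and 0.53 without CD169-DTR 2 Gy replicate 2, both with an unadjusted p above 0.05. Depletion after 2 Gy gave 0.57 ± 0.23 (limma, adjusted p = 0.664), with 0.37 when CD169-DTR 2 Gy replicate 2 was left out, and 0.46 or 0.67 when the first or second WT 2 Gy array was, none with an unadjusted p under 0.05.

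Brip1, the helicase that binds Brca1, read 8.26 and 8.36 in WT non-irradiated, 7.99 and 8.64 in WT 2 Gy, 8.36 and 8.70 in CD169-DTR non-irradiated, and 9.01 and 8.78 in CD169-DTR 2 Gy. Its difference after 2 Gy was 0.58 ± 0.24 (SE; 95% CI 0.01 to 1.15; limma, adjusted p = 0.664). It was 0.25 without WT 2 Gy replicate 1, and leaving out any of the other arrays but WT 2 Gy replicate 2 also put the unadjusted p above 0.05.

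Brca1, which promotes resection of broken ends, read 6.15 and 6.86 in WT non-irradiated, 6.22 and 7.32 in WT 2 Gy, 6.78 and 6.71 in CD169-DTR non-irradiated, and 7.06 and 7.79 in CD169-DTR 2 Gy. Replicates lay far apart in WT non-irradiated (SD 0.50), WT 2 Gy (0.78) and CD169-DTR 2 Gy (0.52), and close together in CD169-DTR non-irradiated (0.05). Irradiation gave 0.27 in WT (95% CI -0.76 to 1.29; limma, adjusted p = 0.852) and 0.68 in CD169-DTR (-0.34 to 1.70; adjusted p = 0.858), although both irradiated CD169-DTR arrays exceeded both non-irradiated ones. Single arrays turned the sign in WT, with 0.81 and -0.28 when the first and the second WT 2 Gy array was left out, and -0.09 and 0.62 when the first and the second non-irradiated one was. In CD169-DTR the value was 1.04 without the first irradiated array and 0.32 without the second. Bard1, the obligate partner of Brca1, showed the same order in CD169-DTR at 0.27 ± 0.26 (SE). Irradiation in CD169-DTR gave no common direction for Rad51b, Rad51c and Xrcc3, whose products form complexes with one another or with related subunits. Rad51b gave -0.37 ± 0.56 (SE), Rad51c -0.30 ± 0.40 and Xrcc3 0.73. Palb2, which bridges Brca1 and Brca2, gave -0.02 there, Rad52 gave 0.42 and the motor protein gene Rad54l gave 0.05, each with an interval that held 0.

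Of the 3 Fanconi anaemia genes, Fanca, a part of the core complex that ubiquitinates Fancd2 and Fanci, read 6.08 and 6.15 in WT non-irradiated, 5.73 and 6.19 in WT 2 Gy, 5.96 and 6.31 in CD169-DTR non-irradiated, and 6.46 and 6.75 in CD169-DTR 2 Gy. Its difference after 2 Gy was 0.65 ± 0.21 (SE; 1.56-fold; 95% CI of the log2 difference 0.15 to 1.14; limma, adjusted p = 0.652). It was 0.41 without WT 2 Gy replicate 1 and 0.50 without CD169-DTR 2 Gy replicate 2, with unadjusted p above 0.05 in both. Fanci read 7.22 and 7.06 in WT non-irradiated, 6.50 and 6.37 in WT 2 Gy, 6.52 and 6.46 in CD169-DTR non-irradiated, and 7.88 and 6.61 in CD169-DTR 2 Gy. Irradiated WT arrays were below and irradiated CD169-DTR arrays above their own non-irradiated pair, although CD169-DTR 2 Gy replicate 2 exceeded that pair by little. The responses were -0.70 in WT (95% CI -1.59 to 0.18) and 0.76 in CD169-DTR (-0.13 to 1.64), and they differed by 1.46 ± 0.52 (SE; 95% CI 0.21 to 2.71; limma, adjusted p = 0.941). Leaving out either array of any group but CD169-DTR 2 Gy gave 1.38 to 1.54, each with an unadjusted p above 0.05. Without CD169-DTR 2 Gy replicate 1 the difference was 0.83, and without replicate 2 it was 2.10. Fancd2 read from 5.55 to 7.11, both in WT 2 Gy, and the interval of each of its differences held 0.

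The 6 classical end joining genes had irradiation medians of -0.03 (WT, range -0.56 to 0.19) and -0.01 (CD169-DTR, -0.30 to 0.69) and a depletion median of 0.09 after 2 Gy (-0.16 to 0.74). Prkdc, the catalytic subunit of the DNA-dependent kinase, read 7.27 and 7.36 in non-irradiated and 7.21 and 7.80 in irradiated WT cells, and 7.65 and 7.74 against 7.77 and 7.31 in CD169-DTR cells. Its irradiation differences were 0.19 in WT (95% CI -0.37 to 0.75) and -0.16 in CD169-DTR (-0.71 to 0.40). The first was 0.49 without WT 2 Gy replicate 1 and -0.10 without replicate 2, and the second was -0.39 and 0.07 without CD169-DTR 2 Gy replicate 1 and 2. Xrcc4, the scaffold of ligase 4, alone of the 6 met the unadjusted rule, for depletion after 2 Gy. It read 7.67 and 7.89 in WT non-irradiated, 7.15 and 7.29 in WT 2 Gy, 8.26 and 7.70 in CD169-DTR non-irradiated, and 7.56 and 8.36 in CD169-DTR 2 Gy, so the irradiated WT pair was the lowest. Depletion after 2 Gy gave 0.74 ± 0.30 (SE; 95% CI 0.03 to 1.45; limma, adjusted p = 0.657). It was 0.34 without CD169-DTR 2 Gy replicate 2, and the unadjusted p was above 0.05 there and without either WT 2 Gy array or either WT non-irradiated array. The Ku subunits Xrcc5 and Xrcc6 had no groups without overlap in these comparisons, Lig4 gave -0.16 for depletion after 2 Gy, and Nhej1, a stimulator of ligase 4, had an SE of 0.56 with replicates up to 1.54 apart. For Polq irradiation gave -0.24 (WT) and -0.05 (CD169-DTR) and depletion after 2 Gy gave -0.30, with intervals that all held 0.

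Of 69 further genes of the same pathways (22 of recombination, 12 of end joining, 19 of signalling and 16 of the Fanconi anaemia pathway), none passed the adjusted threshold in any comparison. For depletion after 2 Gy, 49 were higher and 19 lower in CD169-DTR (median 0.20), and 8 had an unadjusted p under 0.05, all higher (11.6%, against 3.79% of all probe sets and 7.07% of those as bright as the dimmest member). Irradiation gave 2 higher and 4 lower in WT, and 3 higher and none lower in CD169-DTR, by the same rule. These shares lay near those of all probe sets, at 2.9% and 5.8% against 4.59% and 3.18% in WT and 4.35% higher against 3.25% in CD169-DTR. H2afx, which encodes the histone variant phosphorylated around breaks, read 13.71 and 13.51 in WT non-irradiated, 12.65 and 13.10 in WT 2 Gy, 13.00 and 12.89 in CD169-DTR non-irradiated, and 13.74 and 14.48 in CD169-DTR 2 Gy. Its 2 responses ran in opposite directions without overlap, at -0.74 in WT and 1.17 in CD169-DTR, and differed by 1.90 ± 0.38 (SE; 95% CI 0.99 to 2.81; limma, adjusted p = 0.777). Zswim7, a recombination gene, read 11.23 and 11.33 in CD169-DTR non-irradiated cells and 11.93 to 12.23 on the other 6 arrays. Its irradiation difference in CD169-DTR was 0.94 (limma, adjusted p = 0.309). For depletion after 2 Gy, the genes of smallest p beside H2afx were Fance, Babam2 and Cdc25a, all higher in CD169-DTR. Fance, a core complex gene, had a log2 difference of 0.65. That of Babam2, a subunit of a Brca1-containing complex, was 0.72, and that of Cdc25a, a phosphatase that Chek1 and Chek2 restrain, was 0.85.

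Many of these genes are transcribed in cycling cells, and the levels of cell cycle genes differed between the same arrays. Mean deviation from the 8-array mean for the 38 break repair genes was -0.16 and 0.06 in WT non-irradiated, -0.29 and 0.10 in WT 2 Gy, -0.05 and 0.06 in CD169-DTR non-irradiated, and 0.21 and 0.07 in CD169-DTR 2 Gy. For 19 G2/M and mitosis genes it was -0.25 and -0.11, -0.40 and 0.22, -0.08 and 0.07, and 0.28 and 0.25 in the same order. For 22 G1/S and replication genes it was -0.31 and -0.06, -0.28 and 0.07, -0.15 and 0.21, and 0.17 and 0.35. WT 2 Gy replicate 1 was low, and WT 2 Gy replicate 2 above 0, for all 3 lists. Depletion after 2 Gy gave a median of 0.38 for the G2/M genes (16 of 19 higher, 5 with an unadjusted p under 0.05 and higher, 1 lower) and 0.43 for the G1/S genes (20 of 22 higher, 6 and 0). By the unadjusted rule 26.3% of the G2/M genes were higher and 5.26% lower, and 27.3% of the G1/S genes were higher. Of all probe sets 3.79% were higher and 3.68% lower, and of the bright ones 7.07% and 4.84%. The part of the cell cycle genes in the break repair differences was not tested, and in bulk RNA fewer cells of a type and less RNA per cell cannot be told apart.

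Other cell markers also differed between arrays. The 12 neutrophil and granulocyte-monocyte progenitor genes had mean deviations of -1.45 and -0.59 in WT non-irradiated, 0.50 and 1.26 in WT 2 Gy, -0.21 and 0.50 in CD169-DTR non-irradiated, and 0.35 and -0.36 in CD169-DTR 2 Gy. Of these, Elane read 11.59 to 14.57 and Mpo 11.25 to 14.06, highest in WT 2 Gy replicate 2, and S100a8 ran from 6.74 to 13.31. Cebpe (4.37 to 5.21) and Ltf (4.75 to 6.04) lay around the array medians. All 12 were on the higher side for irradiation in WT (median 1.73), and 8 had an unadjusted p under 0.05 (66.7%, against 4.59% of all probe sets, limma). For depletion after 2 Gy 10 of 12 were on the lower side (median -0.75). In that comparison 0 had an unadjusted p under 0.05, where 3.68% of all probe sets were lower, and 0 passed by adjusted p (limma). The 9 mast cell, basophil and eosinophil genes had mean deviations of -0.96 and -0.47 in CD169-DTR non-irradiated cells and 0.71 and 0.43 after 2 Gy. For irradiation in CD169-DTR, 4 of the 9 met the unadjusted rule on the higher side (44.4%, against 3.25% of all probe sets). The 7 erythroid genes ran from 1.30 in CD169-DTR non-irradiated replicate 2 to -1.17 in CD169-DTR 2 Gy replicate 2. Of the 10 LT-HSC genes, 5 were higher and 5 lower for irradiation in WT. The unadjusted rule was met by 0 and 4 of them (0% and 40%, against 4.59% and 3.18% of all probe sets). In CD169-DTR 4 were higher and 6 lower, with 1 and 2 meeting that rule (10% and 20%, against 3.25% and 3.48%). The 9 megakaryocyte genes stood at 0.85 in WT 2 Gy replicate 1 and at -0.44 to 0.44 on the other arrays. The 8 T, NK and B cell genes had a median level of 4.32, with Cd3e at 3.62 to 4.03, but Nkg7 read 13.51 to 15.05 and Jchain 5.36 to 11.42. The 11 monocyte and macrophage genes had a median level of 4.43, with C1qa at 4.31 to 4.80, but Ly6c2 read 12.09 to 14.90 and Cd68 7.57 to 8.67. The 8 lymphoid progenitor genes had a median level of 4.31, but Ighm read 13.96 in CD169-DTR non-irradiated replicate 2 and 7.05 to 8.99 elsewhere. The 8 endothelial and stromal genes had a median level of 4.57. Among them Pdgfrb read 6.88 and 6.35 in WT non-irradiated and 5.08 and 6.07 in WT 2 Gy. In CD169-DTR it read 7.55 and 7.75 without irradiation and 5.24 and 5.41 after 2 Gy. The part of all these markers in the break repair differences was not tested.

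Most of the 24 p53 targets read higher after 2 Gy. Their mean deviation was -0.29 and -0.17 in WT non-irradiated and 0.36 and 0.37 in WT 2 Gy, and -0.33 and -0.40 against 0.19 and 0.26 in CD169-DTR. Irradiation gave a median of 0.37 in WT (20 of 24 higher, 1 by adjusted p) and 0.51 in CD169-DTR (22 of 24 higher, 0 by adjusted p, limma), beside -0.05 and 0.13 for the break repair genes on the same arrays. By the unadjusted rule 7 were higher and 1 lower in WT (29.2% and 4.17%, against 4.59% and 3.18% of all probe sets), and 6 were higher and 2 lower in CD169-DTR (25% and 8.33%, against 3.25% and 3.48%).

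**Figure D4:**
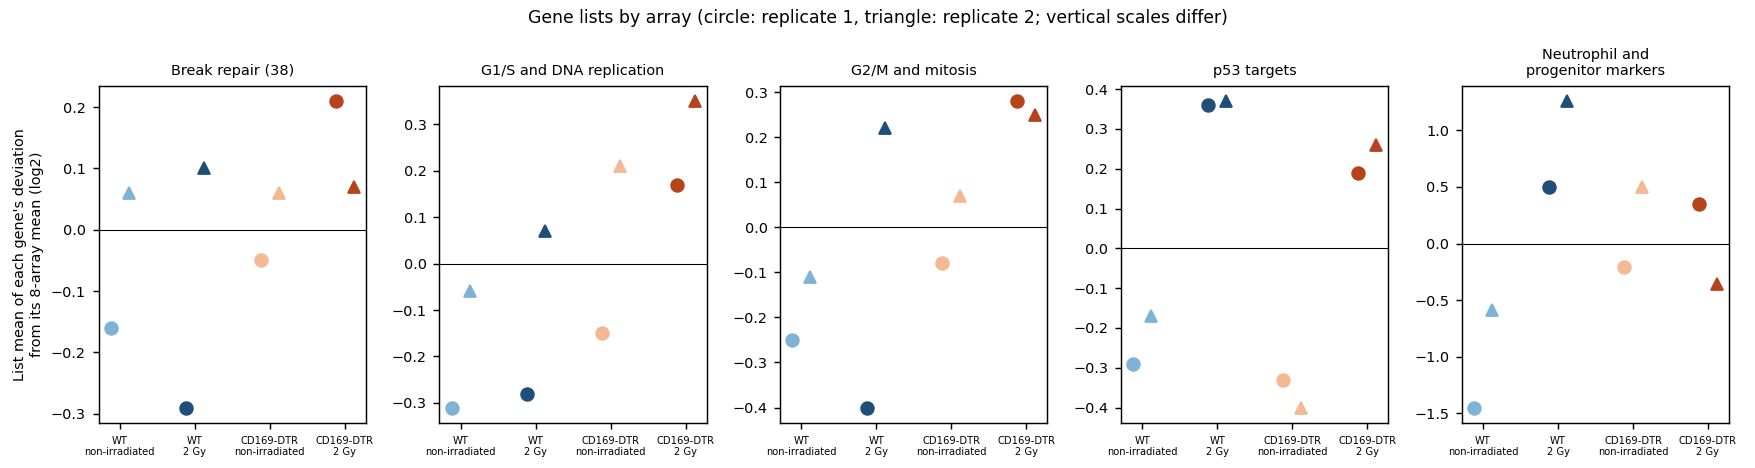
Mean deviation of each array from the 8-array mean (vertical axis, log2) for the break repair genes, G1/S genes, G2/M genes, p53 targets and neutrophil or progenitor markers (panels), with arrays along the horizontal axis by group. Points are single arrays, circles replicate 1 and triangles replicate 2; WT 2 Gy replicate 1 is low for break repair (-0.29), G1/S (-0.28) and G2/M (-0.40), while p53 targets split by dose.

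Promoter sequences were compared because 6 members had higher values in irradiated CD169-DTR cells and because E2F factors and the CCAAT-binding factor NF-Y are known regulators of cycling-cell genes. A RefSeq window (build GRCm38.p6, 250 bases before to 50 after the start) was found for 30 of the 38 genes. Letters searched on both strands were TTTCCCGC or TTTGGCGC for E2F, TTTGAA for the cell cycle homology region, and CCAAT. E2F letters stood in the windows of 6 of 30 genes (20.0%: Chek2, Mdc1, Bard1, Brca2, Rad51c and Xrcc6), against 1.8% of 27025 genes, 33.3% of the G1/S genes and 0 of 15 G2/M genes. TTTGAA stood in 4 of 30 (13.3%, against 20.2% of all genes and 73.3% of the G2/M genes), and CCAAT in 15 of 30 (50%, against 41.1% and 86.7%). Of different motifs, 1 pair overlapped, in Rnf8. A match describes the letters and shows no binding.

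For the 4 genes of the post-irradiation comparison whose windows held a match, the 200 bases before the start are given 5′ to 3′ on the gene's strand, with capitals for the E2F and CCAAT letters or their reverse complements. The stretches are Chek2 at chr5:110839783-110839982 (plus strand), Brip1 at chr11:86201194-86201393 (minus), Xrcc3 at chr12:111813880-111814079 (minus) and Fanca at chr8:123318577-123318776 (minus).
Chek2: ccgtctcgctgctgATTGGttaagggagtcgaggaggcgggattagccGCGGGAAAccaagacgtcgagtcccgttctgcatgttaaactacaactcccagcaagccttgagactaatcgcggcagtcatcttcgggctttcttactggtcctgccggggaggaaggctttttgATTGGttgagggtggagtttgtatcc
Brip1: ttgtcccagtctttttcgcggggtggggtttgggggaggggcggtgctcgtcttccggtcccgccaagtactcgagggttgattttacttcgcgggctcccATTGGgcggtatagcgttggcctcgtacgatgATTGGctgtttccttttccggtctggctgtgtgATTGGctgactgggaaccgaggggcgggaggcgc
Xrcc3: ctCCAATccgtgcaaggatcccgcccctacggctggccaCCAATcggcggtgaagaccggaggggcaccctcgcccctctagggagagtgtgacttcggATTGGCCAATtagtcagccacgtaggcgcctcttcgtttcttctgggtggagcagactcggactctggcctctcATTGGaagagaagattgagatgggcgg
Fanca: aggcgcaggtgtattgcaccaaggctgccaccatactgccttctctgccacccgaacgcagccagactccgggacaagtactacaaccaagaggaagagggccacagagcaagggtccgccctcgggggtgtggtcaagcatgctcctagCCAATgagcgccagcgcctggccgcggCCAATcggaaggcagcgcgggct
Chek2 held 1 E2F match and CCAAT letters on the reverse strand. Brip1, Xrcc3 and Fanca held CCAAT letters and no E2F letters. No match of the 3 motifs was listed for Rnf168 and Xrcc4, which either lacked a window or had one without these letters.

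Stretches around the E2F letters of 4 further members are given beside their values in the same comparison. They are Mdc1 at chr17:35841456-35841497 (plus), Bard1 at chr1:71103147-71103207 (minus), Brca2 at chr5:150522427-150522487 (plus) and Xrcc6 at chr15:82016297-82016357 (plus).
Mdc1: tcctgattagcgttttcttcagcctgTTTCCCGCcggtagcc
Bard1: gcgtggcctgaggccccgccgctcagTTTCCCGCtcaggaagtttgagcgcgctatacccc
Brca2: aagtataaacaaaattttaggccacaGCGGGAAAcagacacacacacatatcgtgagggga
Xrcc6: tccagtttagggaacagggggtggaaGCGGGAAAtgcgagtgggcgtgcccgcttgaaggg
For depletion after 2 Gy the difference was 1.08 for Chek2, 0.48 for Bard1, 0.37 for Rad51c, 0.35 for Mdc1, -0.34 for Brca2 and -0.05 for Xrcc6, and of these 6 Chek2 alone had an unadjusted p under 0.05.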

How the data were processed

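RNA of sorted LT-HSC was measured on 8 Affymetrix arrays, 2 in each of 4 groups. The deposited values are log2 intensities made by the authors with RMA, per the submitters' processing notes. The base of the logarithm is not stated and is taken as 2, as RMA writes it. Of 40161 probe sets, 30294 carried 1 gene symbol and 612 several names of 1 gene; these 30906 were tested, while 1533 that name several genes and 7722 without a symbol were left out. Symbols were updated through RefSeq for 841. No low-value filter was set, and a gene is represented by its brightest probe set.

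A linear model with 4 group means was fitted with limma 3.58.1 in R 4.3.3 (lmFit, contrasts and eBayes; 4 residual and 2.58 prior degrees of freedom, median residual SD 0.182). P-values were adjusted by Benjamini-Hochberg over all tested probe sets. Per-array values and tests are given for members with an unadjusted p under 0.05 in any comparison and always for Atm, Brca1, Prkdc, Trp53bp1, Chek1 and Chek2; further pathway lists give counts and up to 4 genes of smallest p. The fit was tested on simulated data. Alternatives were an intensity trend with robust variance, a filter on dim probe sets, cyclic loess, a block for the replicate number, a fit of the compared groups alone, the mean of a gene's probe sets, and each array left out; median centring and leaving out both arrays farthest on the first principal component were chosen after seeing the data. The members and lists were chosen with earlier results of these data known. The number of arrays limits the precision. Each p-value sets a difference against the spread between arrays of a group, pooled over the 4 groups and moderated over all tested probe sets.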

Additional observations from a re-analysis of the deposited data

Results flagged for a closer look

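Among the 38 break repair genes and the 69 further genes of the same pathways, 3 had responses in opposite directions: both irradiated arrays lay on one side of the non-irradiated pair in WT and on the opposite side in CD169-DTR. The share of all probe sets with this pattern was not counted, so these 3 genes cannot be set against a background. The difference of the responses was tested in limma and passed the adjusted threshold for none of these 3. Fanci, which works with Fancd2 at stalled forks, gave -0.70 in WT and 0.76 in CD169-DTR, a difference of 1.46 (95% CI 0.21 to 2.71; limma, adjusted p = 0.941). That difference was 0.83 without CD169-DTR 2 Gy replicate 1. H2afx gave -0.74 and 1.17, a difference of 1.90 (95% CI 0.99 to 2.81; limma, adjusted p = 0.777). Fancb, a core complex gene of the Fanconi anaemia pathway, gave -0.39 and 0.18, a difference of 0.56 (95% CI -0.13 to 1.25; limma, adjusted p = 0.962). Its arrays read 7.16 and 6.60 in WT non-irradiated, 6.57 and 6.42 in WT 2 Gy, 6.72 and 6.71 in CD169-DTR non-irradiated, and 7.02 and 6.76 in CD169-DTR 2 Gy.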

How the results depend on the processing

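No break repair gene passed the adjusted threshold under any alternative run, and no difference turned its sign while past the threshold. Counts of break repair genes with an unadjusted p under 0.05 (limma) moved as follows, with no share of all probe sets counted beside them. With the replicate number as a block they were 0 for irradiation in WT, 2 in CD169-DTR, 2 for the difference of the responses, 2 for depletion without irradiation and 7 after 2 Gy; same-numbered arrays deviated together with correlations of only -0.09 to 0.16, so the numbers were not taken to pair the arrays. Cyclic loess gave 2 for irradiation in WT, 2 for the average and 5 for depletion after 2 Gy. The intensity trend and the dim filter each gave 4 for depletion after 2 Gy. Median centring gave 2 for irradiation in WT, 0 for the average and 2 for the difference of the responses. Fitting only the groups compared gave 3 for irradiation in WT, 3 for depletion without irradiation and 3 after 2 Gy. Leaving out both far arrays gave 5 for irradiation in WT, 3 in CD169-DTR, 5 for the average, 3 for the difference of the responses, 3 for depletion without irradiation and 3 after 2 Gy, and a median of 0.17 for irradiation in WT. Of all probe sets, the adjusted threshold was passed for irradiation in WT by 1 with cyclic loess, 0 with only the groups compared and 0 without the far arrays; in CD169-DTR by 2 with an intensity trend, 1 with the dim filter, 2 with cyclic loess and 4 without the far arrays; for the average by 1 with the trend; for depletion without irradiation by 1 with the trend; and without the far arrays by 1 for the difference of the responses and 2 for depletion after 2 Gy. With single arrays left out, the members' median, their count at an unadjusted p under 0.05 and the adjusted count of all probe sets ran from -0.19 to 0.17, 1 to 3 and 0 to 17 for irradiation in WT; 0.07 to 0.22, 0 to 5 and 0 to 5 in CD169-DTR; -0.01 to 0.15, 0 to 5 and 1 to 9 for the average; -0.12 to 0.29, 0 to 4 and 0 to 4 for the difference of the responses; -0.05 to 0.14, 0 to 3 and 0 to 6 for depletion without irradiation; and 0.07 to 0.50, 3 to 9 and 0 to 13 after 2 Gy. Chek2 kept an unadjusted p under 0.05 for depletion after 2 Gy in the alternatives with 2 arrays per group, most of which leave its difference unchanged. With the block, Chek2 for irradiation in WT, and Xrcc3 and Xrcc4 for depletion after 2 Gy, no longer met that rule. For depletion after 2 Gy, cyclic loess also lost Xrcc3 and Xrcc4, and the trend and the dim filter each lost Brip1 and Xrcc3. Fitting only the groups compared lost Rnf168, Brip1 and Xrcc4. The cause of these movements was not tested.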
